A study of Mus musculus with 10 samples.

Results

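Mgst1 and 9 other glutathione transferase genes (Mgst2, Mgst3, Gsta4, Gstm1, Gstm2, Gstm5, Gstp1, Gstt1 and Gsto1) were followed in single-cell clones of 3T3-L1 preadipocytes. Each of the 10 genes had 1 probe set annotated to its symbol alone, so no choice between probe sets was needed. They are 10 of the 19937 genes with such a probe set, and all 10 passed the filter on dim signals that 16339 genes passed. Mgst1 had come to attention because it was among the genes with the smallest p between the classes compared here, so its class difference is given as a description, without a test. The other 9 were added as members of its enzyme families, with earlier results of these data known.

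3T3-L1 is an embryonic fibroblast line whose cells become fat-storing adipocytes when given insulin, dexamethasone and the phosphodiesterase inhibitor IBMX. Colonies grown from single cells had been given this cocktail, and were classed as High or Low by the triglyceride they then stored. RNA for the arrays came from untreated, proliferating, pre-confluent cells kept in DMEM with 10% serum. The High lines were clones 3F4, 4D2, 4E3, 5C4 and 5D4 (High replicates 1 to 5), and the Low lines were clones 1E7, 2D7, 2F1, 4D11 and 4H4 (Low replicates 1 to 5). Every line is 1 clone with 1 array, so a value holds clonal and technical variation together, and the comparison asks how the classes differed before differentiation began.

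Glutathione transferases join the tripeptide glutathione to reactive, fat-soluble compounds, which makes them easier to export. The MAPEG proteins (Mgst1, Mgst2 and Mgst3) sit in membranes, and the alpha, mu, pi, theta and omega classes are mostly soluble. Several of them also act as peroxidases on lipid hydroperoxides or take up aldehydes made when membrane lipids are oxidised, which is why they are studied in fat cells. Many are targets of NRF2, a transcription factor that KEAP1 holds back until cells meet oxidants or electrophiles.

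The promoters of Mgst1 and Mgst3, the members with the largest positive class differences below, of Gstm5, the member with the largest negative one, and of Gstp1 are shown because the core of the antioxidant response element, the site that NRF2 binds with a small MAF protein, can be looked for in them. Each is the 250 bases before a transcript start, 5′ to 3′ on the gene's strand, from RefSeq for GRCm38.p6. Capitals mark the core TGACNNNGC, or TGANTCAGC, a form that also resembles the site of AP-1, on either strand.
Mgst1: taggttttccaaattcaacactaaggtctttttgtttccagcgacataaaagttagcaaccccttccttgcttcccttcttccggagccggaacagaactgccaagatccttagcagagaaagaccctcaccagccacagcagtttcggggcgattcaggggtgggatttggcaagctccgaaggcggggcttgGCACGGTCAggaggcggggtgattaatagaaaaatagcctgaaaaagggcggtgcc
Mgst3: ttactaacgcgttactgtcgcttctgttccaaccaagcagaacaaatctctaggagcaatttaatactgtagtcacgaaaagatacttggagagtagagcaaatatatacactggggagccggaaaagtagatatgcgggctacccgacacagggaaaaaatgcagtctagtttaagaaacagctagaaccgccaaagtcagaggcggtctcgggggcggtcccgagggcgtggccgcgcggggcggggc
Gstm5: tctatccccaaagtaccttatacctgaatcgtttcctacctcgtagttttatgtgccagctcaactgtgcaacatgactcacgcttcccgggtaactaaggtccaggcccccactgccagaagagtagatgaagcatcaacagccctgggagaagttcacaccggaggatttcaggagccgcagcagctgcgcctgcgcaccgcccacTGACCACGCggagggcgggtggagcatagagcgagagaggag
Gstp1: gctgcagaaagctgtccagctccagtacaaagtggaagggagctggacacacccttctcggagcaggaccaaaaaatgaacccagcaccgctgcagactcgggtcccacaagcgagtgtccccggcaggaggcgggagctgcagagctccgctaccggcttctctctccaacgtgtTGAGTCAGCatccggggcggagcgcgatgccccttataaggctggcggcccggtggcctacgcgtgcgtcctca
These stretches are chr6:138140277-138140526 on the plus strand for Mgst1, chr1:167393842-167394091 on the minus strand for Mgst3, chr3:107895604-107895853 on the plus strand for Gstm5 and chr19:4037913-4038162 on the minus strand for Gstp1. In Mgst1 the core lies 56 to 48 bases before the start and reads GCACGGTCA on the gene's strand. In Gstm5 it lies 42 to 34 bases before the start and reads TGACCACGC, and in Gstp1 the other form lies 74 to 66 bases before the start and reads TGAGTCAGC. The RefSeq table held 11 promoters for 9 of the 10 genes, with 2 each for Mgst1 and Gstm1. Of the 11, those not printed, among them the other Mgst1 promoter, held neither form of the core. Every promoter with a match is thus among those printed, which do not show how common a match is. Windows of 300 bases, which add 50 bases after the start, held TGACNNNGC in 2 of these 11 and in 12.4% of all 32851 promoters. TGANTCAGC stood in 1 of the 11 and in 1.19% of all. A match is a description of the letters, and no binding was measured.

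Mgst1 encodes a trimeric enzyme of the endoplasmic reticulum and outer mitochondrial membrane that conjugates glutathione and reduces lipid hydroperoxides. Its log2 intensities (probe set 10542470, Entrez gene 56615, chromosome 6) were 11.93, 11.47, 11.60, 11.25 and 11.17 in High replicates 1 to 5, against 10.51, 10.42, 10.44, 9.59 and 10.72 in Low replicates 1 to 5. No High line overlapped with any Low line, with 0.45 between the lowest High line, High replicate 5, and the highest Low line, Low replicate 5. The means were 11.49 ± 0.30 in High and 10.34 ± 0.43 in Low lines (SD, n = 5 each). This is a difference of 1.15 (95% confidence interval 0.72 to 1.58), or 2.22-fold on the RMA scale. Neither the size nor the interval makes allowance for the choice of Mgst1 by its small p on these same arrays, so the interval is no test. Over the 10 lines the intensity spanned 2.34 log2 units, a 5.07-fold range from Low replicate 4 to High replicate 1. In the plot of values by line, Mgst1 is the gene whose classes separate.

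**Figure D1:**
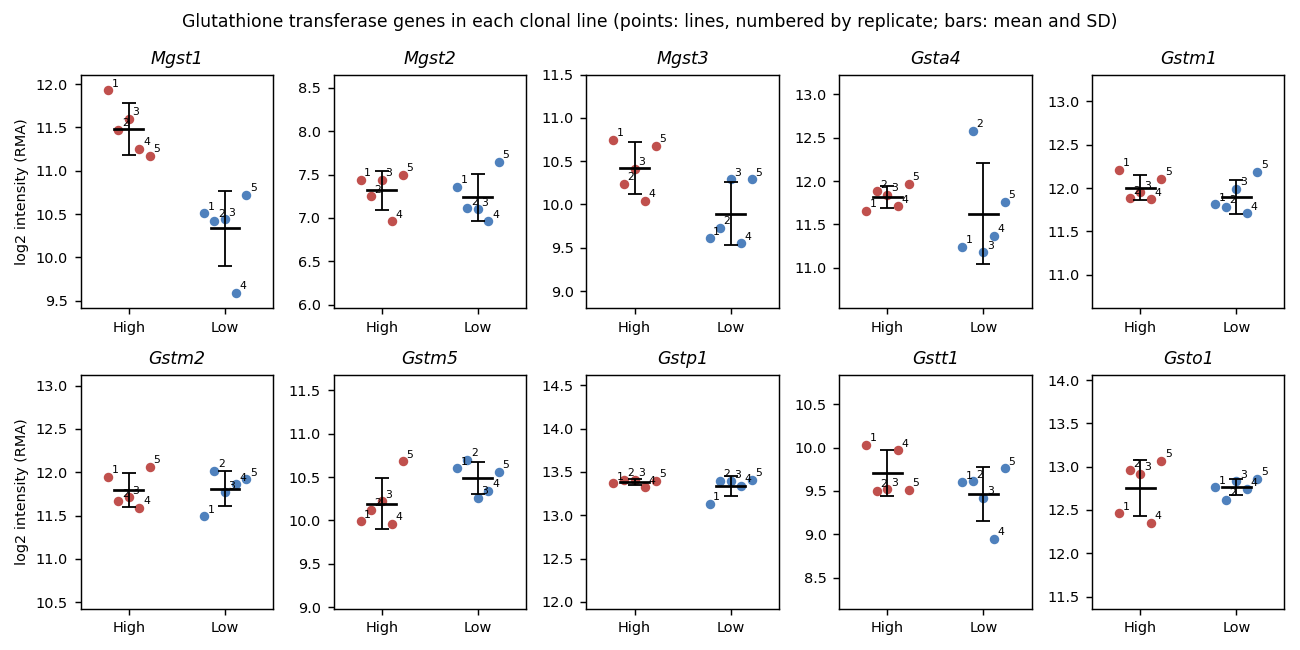
Log2 RMA intensity (y axis, every panel spanning the same number of log2 units) of the 10 genes in High and Low lines, with 1 point per line numbered by its replicate and the mean and SD of 5 lines. Mgst1 ran from 11.17 to 11.93 in High and from 9.59 to 10.72 in Low lines without overlap, and the classes overlapped for each of the other 9 genes.

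Mgst3, a MAPEG enzyme with peroxidase and transferase activity, gave the next largest difference of the 10. It measured 10.75, 10.24, 10.41, 10.04 and 10.68 in High replicates 1 to 5, against 9.61, 9.73, 10.29, 9.55 and 10.29 in Low replicates 1 to 5. High replicates 1, 3 and 5 lay above every Low line, while High replicates 2 and 4 fell below Low replicates 3 and 5. High lines exceeded Low lines by 0.53 on average (SE 0.18, 95% confidence interval 0.14 to 0.92), or 1.45-fold, which did not pass in limma over all genes (unadjusted p = 0.0118, adjusted p = 0.47). Mgst2, which can make leukotriene C, measured 7.44, 7.25, 7.44, 6.96 and 7.50 in High lines. Low replicates 1 to 5 measured 7.36, 7.11, 7.10, 6.96 and 7.65. The Mgst2 values of the classes overlapped almost fully, with a difference of 0.08 (95% confidence interval -0.22 to 0.38, limma adjusted p = 0.88). Mgst2 lay under the array median in all 10 lines.

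Gsta4, an alpha-class enzyme known for clearing hydroxynonenal, an aldehyde of lipid peroxidation, measured 11.66, 11.88, 11.84, 11.71 and 11.97 in High lines. In Low replicates 1 to 5 it measured 11.24, 12.58, 11.18, 11.37 and 11.76. The High lines were close together (11.82 ± 0.13, SD, n = 5), and the Low lines spread on both sides of them (11.62 ± 0.58, SD, n = 5), with Low replicate 2 as the brightest of all. The difference of 0.19 (95% confidence interval -0.29 to 0.67, limma adjusted p = 0.838) became 0.43 without that line, again short of the threshold (limma adjusted p = 0.282). With each line left out in turn, the Gsta4 difference ran from 0.08 to 0.43.

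The mu class gave differences on both sides of 0. Gstm5 measured 9.99, 10.12, 10.22, 9.96 and 10.68 in High replicates 1 to 5, against 10.60, 10.70, 10.26, 10.34 and 10.56 in Low replicates 1 to 5. High replicates 1 to 4 lay below every Low line, and High replicate 5 was close to the brightest Low line. The Gstm5 difference was -0.30 (95% confidence interval -0.59 to -0.01), with a limma unadjusted p of 0.0467 and an adjusted p of 0.62, and it was -0.42 without High replicate 5 (limma adjusted p = 0.197). With each line left out in turn, it ran from -0.42 to -0.24. Gstm1, the broadly expressed mu-class enzyme, measured 12.21, 11.89, 11.95, 11.87 and 12.11 in High lines and 11.81, 11.78, 11.99, 11.71 and 12.19 in Low lines. Its difference was 0.11 (95% confidence interval -0.11 to 0.33, limma adjusted p = 0.807), and 1 High line lay above all Low lines. Gstm2 measured 11.95, 11.67, 11.71, 11.59 and 12.06 in High lines and 11.49, 12.02, 11.77, 11.86 and 11.92 in Low lines. Its difference was -0.01, with an interval of -0.26 to 0.24 (limma adjusted p = 0.981). The mu genes lie in 1 cluster on chromosome 3 and are close copies of one another, so how far each probe set measures only its own gene is uncertain.

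Gstp1, the pi-class enzyme, hardly varied on the probe set of its own. It measured 13.37, 13.41, 13.41, 13.32 and 13.40 in High lines and 13.13, 13.40, 13.39, 13.34 and 13.41 in Low lines. Apart from Low replicate 1, the lines lay within 0.1 of each other, and the class difference was 0.05 (95% confidence interval -0.09 to 0.19, limma adjusted p = 0.852). A further 2 probe sets were annotated to Gstp1 and its copy Gstp2 together, and they differed by 0.14 and 0.02 between the classes. Both varied more over the lines, from 10.46 to 10.92 and from 11.80 to 12.14. Gstt1, a theta-class enzyme, measured 10.03, 9.50, 9.52, 9.97 and 9.51 in High lines, against 9.60, 9.61, 9.42, 8.95 and 9.76 in Low lines. High replicates 1 and 4 were above all Low lines and the other three were inside the Low range, for a difference of 0.24 (95% confidence interval -0.11 to 0.58, limma adjusted p = 0.761). Gsto1, an omega-class enzyme that acts as a thioltransferase and dehydroascorbate reductase, measured 12.46, 12.96, 12.92, 12.35 and 13.07 in High lines. In Low lines it measured 12.76, 12.62, 12.83, 12.74 and 12.86. The High lines of Gsto1 fell on both sides of the Low lines, 3 above and 2 below all of them, and the mean difference was -0.01 (95% confidence interval -0.30 to 0.27, limma adjusted p = 0.984).

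**Figure D2:**
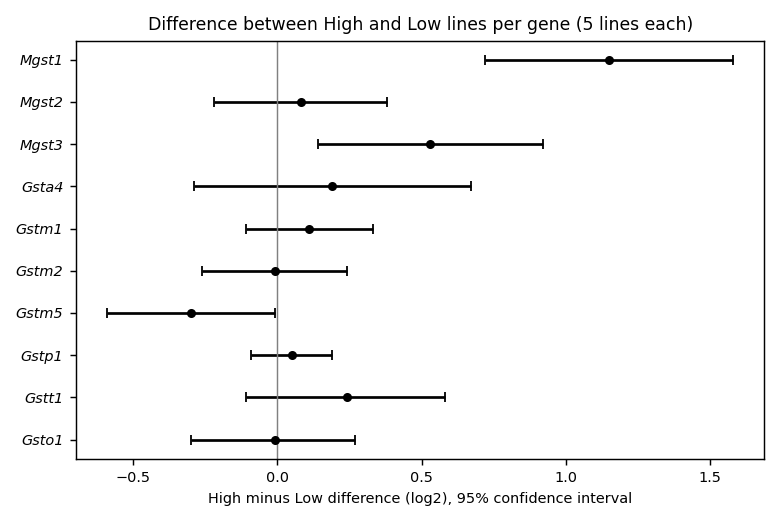
High minus Low difference (log2, x axis) of each of the 10 genes (y axis), with its 95% confidence interval from the limma fit over all tested genes (5 High and 5 Low lines). The interval of Mgst1, 0.72 to 1.58, makes no allowance for its choice on this comparison and is shown as a description. Those of Mgst3 (0.14 to 0.92) and Gstm5 (-0.59 to -0.01) lie on opposite sides of 0.

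Of the 10 genes, 0 passed an adjusted p under 0.05 in limma, where 0.00612% of the 16339 tested genes (1 gene) did. At an unadjusted p under 0.05 there were 3, Mgst1 and Mgst3 with positive and Gstm5 with negative differences, where 7.95% of tested genes had such a p, 3.16% higher and 4.79% lower in High lines. That background depends on scaling. Its 517 higher and 782 lower genes became 298 and 1188 when arrays were centred on their medians over all probe sets, and 640 and 510 when they were centred on the median of the tested genes. Without Mgst1, which was chosen on this comparison, 2 of 9 genes had an unadjusted p under 0.05. These 9 were also chosen with earlier results of these data known, so their count is a description and not a test. The values of High and Low lines did not overlap for 1.57% of tested genes, 0.526% with High above and 1.04% with High below, and for 0 of the 9 genes other than Mgst1. The median difference was 0.097 over the 10 genes and 0.082 without Mgst1, with 7 of 10 positive, against 0.021 and 58% positive over all tested genes. Centring the arrays on their medians left 7 of 10 positive, and centring on the median of tested genes gave 9.

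Spread among lines of the same class does not use the difference between the classes, but it enters the p by which Mgst1 was chosen. The pooled SD within classes was 0.42 for Gsta4, 0.37 for Mgst1, 0.33 for Mgst3 and 0.29 for Gstt1. These stand at percentiles 97.6, 96.8, 95.6 and 93.6 of the tested genes. Leaving out each line in turn was added after seeing the data. Without Low replicate 2 the SD of Gsta4 was 0.20 (percentile 80.2), and without Low replicate 4 those of Mgst1 and Gstt1 were 0.25 (percentile 89.8) and 0.22 (percentile 86.2). Mgst3 kept an SD of 0.32 to 0.36 with any 1 line left out. At the other end Gstp1, at 0.09, stood at percentile 15. The remaining 5 genes lay between 0.17 (Gstm1) and 0.25 (Mgst2), at percentiles 70.4 to 89.9.

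The line pattern shows which clones carried these differences. High replicate 1 had the highest value of 4 of the 10 genes, Mgst1, Mgst3, Gstm1 and Gstt1, and Low replicate 4 had the lowest value of the same 4. Low replicate 4 was among the lowest 3 lines for 7 of the 10 genes, and its median deviation from the 10-line medians was -0.27. Low replicate 4 was also the lowest line for genes outside the 10, among them Cth, Cbr3 and Keap1, and the highest for others, among them Hmox1, Gclc and Gsr. How often a line is lowest or highest over all tested genes was not counted, so these ranks need not be particular to the 10. High replicate 5 and Low replicate 5 each lay above the 10-line median for 9 genes, whereas High replicate 4 did so for 2. High replicate 4 had the lowest Mgst2, Gstm5 and Gsto1, and its array had the highest median intensity (7.84, against 7.74 to 7.79 in the other arrays). The part of that array difference in its low values was not tested.

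**Figure D3:**
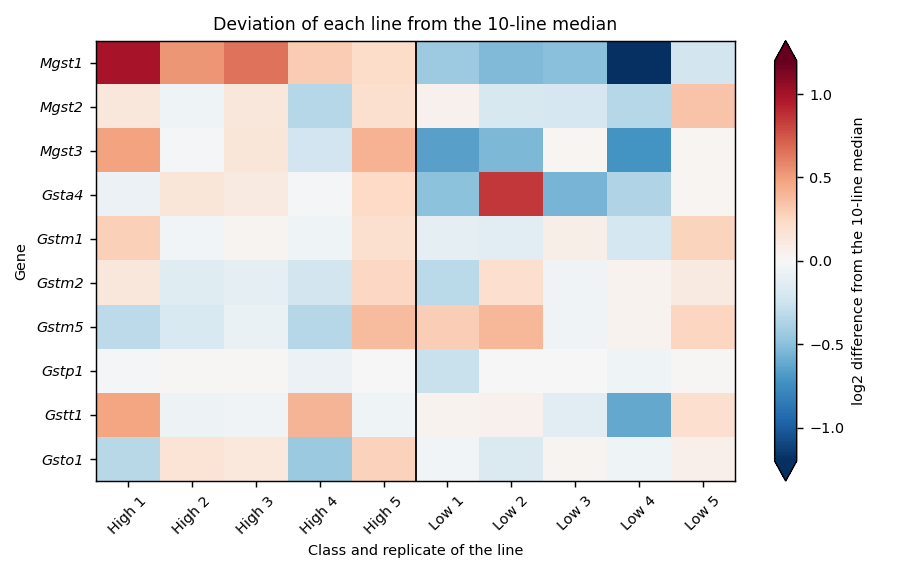
Deviation of each line (x axis, High lines left of the black line and Low lines right of it) from the 10-line median of each gene (y axis), in log2 units by colour. High replicate 1 and Low replicate 4 hold the highest and lowest values of Mgst1, Mgst3, Gstm1 and Gstt1, and High replicate 4 lies above the median for 2 of 10 genes.

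Pairs of these genes were compared over the same 10 arrays, which share their normalization, so the correlations are descriptions. Mgst3 and Gstm1, on chromosomes 1 and 3, were the most alike of the 45 pairs, with Pearson's r = 0.88 and Spearman's rho = 0.90. With each class centred on its own mean the r of this pair was 0.93. Mgst1 and Mgst3 had r = 0.78 and rho = 0.70, and the r was 0.54 after centring. Leaving out High replicate 1 and Low replicate 4, the lines farthest from the Mgst1 median, gave Mgst1 and Mgst3 an r of 0.55 over 8 lines, and gave Mgst1 and Gstt1 an r of 0.06, against 0.70 over 10. The likeness of Mgst1 and Gstt1 therefore rests on those 2 lines. The most opposed pair was Gstt1 and Gsto1, with r = -0.54, and the median over all pairs was 0.28.

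The genes whose pattern over the 10 lines was most like that of Mgst1 were on none of the glutathione and redox lists. Among 15015 protein-coding tested genes the highest r belonged to Mylip, which encodes a ubiquitin ligase that marks the LDL receptor for breakdown, with r = 0.98 and a rho of 1. Mylip averaged 10.81 ± 0.13 in High and 10.39 ± 0.20 in Low lines (SD, n = 5 each), and it ranked the lines in the order of Mgst1. It was followed by the lipid droplet coat gene Plin4, the G protein-coupled oestrogen receptor gene Gper1, Coq2, an enzyme of coenzyme Q synthesis, and Kctd12b, with r from 0.94 to 0.95. The lowest r were those of Cap1, which encodes an actin-regulating protein (r = -0.97), the carboxypeptidase gene Prcp and the ether lipid gene Gnpat (r = -0.93 for both). Cap1 moved little in size, with 13.21, 13.25, 13.19, 13.25 and 13.31 in High lines and 13.36, 13.35, 13.35, 13.49 and 13.34 in Low lines. After class centring, r was 0.94 for Mylip, 0.84 for Plin4, 0.87 for Gper1, 0.79 for Coq2 and 0.81 for Kctd12b. For Cap1, Prcp and Gnpat it was then -0.91, -0.77 and -0.71. Each of these genes had classes without overlap, as Mgst1 did, so r over the 10 lines also holds the class difference. Without High replicate 1 and Low replicate 4, r over 8 lines was 0.94 for Mylip, 0.89 for Kctd12b, -0.95 for Cap1 and -0.85 for Prcp. These genes were picked as the extremes of all genes searched, and 5 lines a class are too few to correlate within 1 class. Of the family, Mgst3 ranked 177 by r and Gstm5 13484 of the 15015.

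Genes beside Mgst1 on chromosome 6 were compared because clonal lines can differ in whole stretches of a chromosome. The nearest tested genes before it, Dera and Slc15a5, differed by 0.08 and 0.11, and the nearest after it, Plekha5 and Aebp2, by 0.12 and 0.13, all with overlapping classes. Over the 10 lines these single genes spanned 0.28, 0.46, 0.55 and 0.45 log2 units, in that order. The median of the 50 nearest tested genes, each taken as its deviation from its own mean, ran from -0.04 to 0.08 in High lines and from -0.11 to 0.00 in Low lines. With this median subtracted, Mgst1 ran from 11.21 to 11.87 in High lines and from 9.58 to 10.77 in Low lines. The difference was then 1.07, against 1.15 as deposited. The medians varied less than the 0.45 between the Mgst1 classes, so subtracting them could not bring an overlap. The part of such chromosome stretches in the Mgst1 difference was not tested. Over the 827 tested genes of chromosome 6 the median difference was 0.064.

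**Figure D4:**
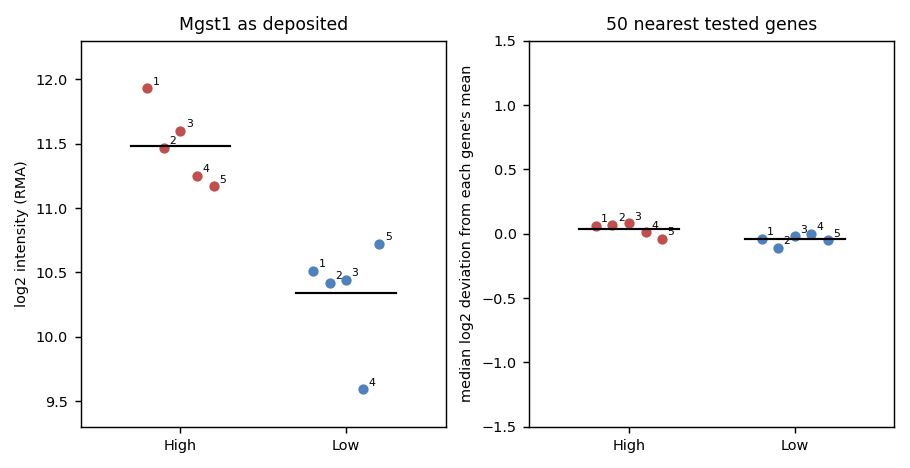
Left, log2 RMA intensity of Mgst1 in High and Low lines (points numbered by replicate, bars at the class means); right, the median log2 deviation of its 50 nearest tested genes in the same lines, on an axis of equal length. The median of the neighbours ran from -0.04 to 0.08 in High and from -0.11 to 0.00 in Low lines, and the 4 nearest genes taken singly spanned 0.28 to 0.55 log2 units over the lines.

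The other glutathione transferases and MAPEG genes gave 0 calls. Of 18 other transferases, 12 were tested, 4 had no probe set of their own (Gsta1, Gsta2, Gsta5 and Gstp2) and 2 were too dim (Gstm6 and Hpgds). Their median difference was 0.083, with 9 of 12 positive, and 1 had a limma unadjusted p under 0.05. Gstm4, a mu-class neighbour of Gstm1, measured 7.77, 7.25, 7.57, 7.23 and 7.34 in High lines, against 7.16, 7.12, 7.12, 6.92 and 7.11 in Low lines. All 5 High lines of Gstm4 were above all 5 Low lines, as for 0.526% of tested genes, and the difference of 0.35 (95% confidence interval 0.12 to 0.57) had a limma adjusted p of 0.401. Gstp3 differed by 0.18 (limma adjusted p = 0.688). The other MAPEG genes, Ptges for prostaglandin E synthesis and Alox5ap and Ltc4s for leukotrienes, differed by 0.12, 0.09 and 0.17, the smallest limma adjusted p being 0.723.

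Genes that make and supply glutathione lay on both sides of 0. Of 17 tested, 7 were on the positive side and 10 on the negative side, the median was -0.058, and there were 0 calls and 0 genes with a limma unadjusted p under 0.05. Cth and Cbs, which make cysteine from homocysteine, differed by 0.48 (limma adjusted p = 0.692) and 0.16 (limma adjusted p = 0.689). The subunits of the rate-limiting ligase, Gclc and Gclm, differed by -0.13 (95% confidence interval -0.39 to 0.14) and -0.08 (95% confidence interval -0.24 to 0.09), and glutathione reductase, Gsr, by -0.13 (95% confidence interval -0.32 to 0.06). The 10 peroxidases and glutaredoxins had a median of 0.025, with Gpx7 at 0.17 and Glrx5 at -0.10. The 11 tested thioredoxin and peroxiredoxin genes had a median of -0.003, with the thioredoxin inhibitor gene Txnip at 0.32 and thioredoxin reductase, Txnrd1, at -0.10.

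NRF2 and its targets also lay on both sides of 0. Of 21 tested genes 14 were on the positive side and 7 on the negative side, around a median of 0.013, with 0 calls. At a limma unadjusted p under 0.05 there were 4, of which 3 were higher and 1 lower in High lines, where 7.95% of all tested genes had such a p. Bach1, a repressor that competes at NRF2 sites, differed by 0.18 and the carbonyl reductase gene Cbr3 by 0.26 (limma adjusted p = 0.515 and 0.517). Blvrb, which reduces biliverdin, differed by 0.19, and Hmox1, which makes biliverdin from haem, by -0.25 (limma adjusted p = 0.6 and 0.574). Nfe2l2, which encodes NRF2, measured 12.39 ± 0.13 in High and 12.39 ± 0.14 in Low lines (SD, n = 5 each), a difference of 0.00 (95% confidence interval -0.18 to 0.19). The NRF2 target Nqo1, a quinone reductase, differed by -0.22 (95% confidence interval -0.61 to 0.18), and Keap1 by 0.12 (95% confidence interval -0.03 to 0.27).

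The remaining lists held 0 calls too. Among superoxide dismutases and catalase, Sod3 differed by 0.71 (95% confidence interval -0.67 to 2.10) and Cat by -0.08. Of the 10 glyoxalases and aldehyde-clearing enzymes, with a median of 0.025, the aldehyde dehydrogenase gene Aldh3a1 differed by -0.36 (limma adjusted p = 0.537) and Aldh3a2 by -0.15. Of 6 tested exporters, with a median of 0.121, Abcc4 differed by -0.18 (limma adjusted p = 0.593) and Abcc3 by 0.20 (limma adjusted p = 0.648). Over all 93 tested genes of these lists, each counted once, 55 were on the positive side and 38 on the negative side, around a median of 0.020, and 7 had an unadjusted p under 0.05, against the 7.95% of all tested genes given above.

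**Figure D5:**
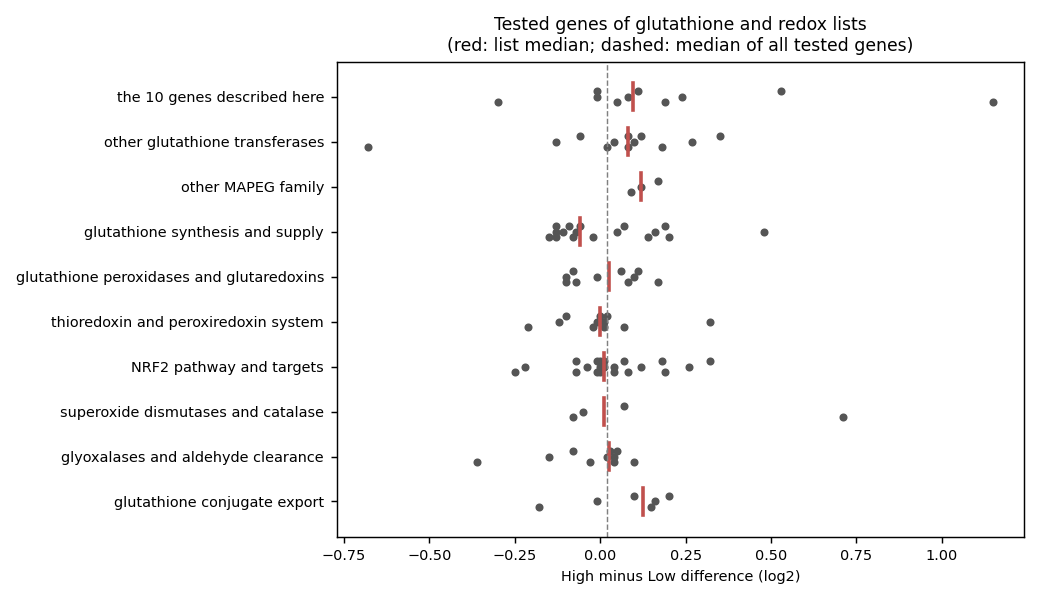
High minus Low difference (log2, x axis) of each tested gene in the 10 members and 9 lists of glutathione and redox genes (y axis), with list medians in red and the median of all tested genes, 0.021, dashed. List medians lie between -0.058 and 0.121, and Mgst1, at 1.15, lies farthest to the right.

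Of 13 measured markers of fibroblasts and preadipocytes, 12 were above the filter and Lum below it. The mean log2 intensity over the list was 11.56 to 11.81 in High and 11.50 to 11.72 in Low lines. Of the 12 tested, 8 were on the positive and 4 on the negative side, with 0 calls. Thy1 and Pdgfra were higher in High lines by 0.34 and 0.33 (limma unadjusted p = 0.0197 and 0.0494, adjusted p = 0.511 and 0.628). Of 5 measured mature adipocyte markers, 3 (Plin1, Retn and Cidec) were above the filter and Adipoq and Lep below it, and the list mean was 6.94 to 7.25 in High and 6.95 to 7.11 in Low lines. Means of the other marker lists were 7.45 to 7.67 in High and 7.39 to 7.49 in Low lines for macrophage and blood cells, where 4 of 6 (Cd68, Csf1r, Cd14 and Lyz2) were above the filter and Ptprc and Adgre1 below it. They were 6.81 to 7.03 in High and 6.75 to 6.91 in Low lines for endothelium (4 of 4 above the filter), 7.30 to 7.60 in High and 7.29 to 7.36 in Low lines for epithelium (5 of 5 above it), and 6.54 to 6.77 in High and 6.55 to 6.68 in Low lines for hepatocytes, where Apoa1 was above it and Alb and Ttr below. Passing the filter does not set the lists apart, since every endothelial and epithelial marker passed it. List means come from different probe sets, whose levels cannot be ranked. Among the macrophage and blood cell markers, Csf1r was lower in every High line than in any Low line, as for 1.04% of tested genes. Its difference was -0.16 (limma adjusted p = 0.574). The part of other cell types in the results above was not tested. In bulk RNA, more cells with a transcript and more transcript per cell cannot be told apart.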

How the data were processed

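Per the labels' protocols, total RNA from proliferating cells was turned into fragmented, biotin-labelled sense-strand DNA and read on arrays, 1 for each of 10 lines. The deposited values are log2 intensities summarised by the authors with RMA, which the submitters' processing notes name without settings. RMA pulls arrays towards a common distribution, so a shift shared by most genes would be lost, and levels of different probe sets cannot be ranked.

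Of 34760 probe sets, 21640 carried 1 gene symbol, 1321 several and 11799 none in the platform annotation used here. The brightest of a gene's probe sets was kept. A gene was tested when above the array's 25th percentile (6.38 to 6.47) in at least 5 arrays. The comparison of High with Low lines used limma 3.58.1 (lmFit, eBayes; R 4.3.3), two-sided, with Benjamini-Hochberg adjustment over 16339 genes and calls at an adjusted p under 0.05. A difference is the High mean minus the Low mean. Gene order and promoters came from RefSeq tables for GRCm38.p6, and no build is named for the arrays. The rule for named genes took every member, the 2 smallest p of each list, the 5 highest and 3 lowest correlations with Mgst1 among protein-coding genes, and the 2 nearest tested genes on each side of it. Further genes were named after their values were seen. The members and lists were chosen with earlier results of these data known. On simulated data with 5 arrays a class and 16339 genes, the fit called 36% of 50 genes simulated with a 1.25-fold change. Its share was 78% at 1.5-fold, 84% at 2-fold and 100% at 4-fold, with 10 false among 159 calls. Each of these folds was given to 50 genes. The adjustment is more lenient where many genes change, and the deposited data gave 1 call. The simulated shares therefore do not carry over to the deposited data, where 0 calls do not show that genes were unchanged. With no counts behind array values, precision is limited by how many lines there are. Python 3.11.15, pandas 2.3.3, numpy 2.4.6 and matplotlib 3.10.9 handled tables and plots.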

Additional observations from a re-analysis of the deposited data

Results flagged for a closer look

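In 2 of 20 sets of 5 values (10 genes in each class) 1 line stood apart from the other 4 of its class by Dixon's 95% criterion, where chance gives about 1. Low replicate 4 (clone 4D11) had an Mgst1 log2 intensity of 9.59, against 10.42 to 10.72 in the other Low lines. Without it the Mgst1 difference was 0.96. Low replicate 1 (clone 1E7) had a Gstp1 log2 intensity of 13.13, against 13.34 to 13.41 in the other Low lines. Without it the Gstp1 difference was -0.00.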

How the results depend on the processing

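Under 19 alternatives 0 of the 10 genes and 0 of the list genes passed the threshold in limma, and 1 to 3 of the 10 and 2 to 8 of the list genes had an unadjusted p under 0.05. The alternatives covered the filter, the mean over probe sets, centring of arrays, repeated quantile normalization and variance models. They also covered array weights, a block for the first digit of clone names, and each line left out. Mgst1, which was chosen on this comparison, had a limma unadjusted p under 0.05 in each alternative and so is always in the count of the 10. Centring on the median of tested genes was chosen after seeing the data. Without High replicate 5, 19 genes of the series passed, against 1 with all lines, and 0 of the 10 were among them. Over these alternatives and the subtraction of neighbouring genes, Mgst1 ran from 0.96 to 1.38, Mgst3 from 0.40 to 0.63, Gsta4 from 0.08 to 0.43, Gstt1 from 0.11 to 0.31, Mgst2 from 0.01 to 0.19 and Gstm5 from -0.42 to -0.24. Gstm2 turned to 0.00 with repeated quantile normalization, 0.02 with array weights and 0.01 with centring on tested genes, and ran from -0.09 to 0.04 with 1 line left out. Gsto1 turned to 0.03 with array weights, 0.14 with the first digit, 0.02 with neighbours subtracted and 0.01 with centring on tested genes, and ran from -0.09 to 0.09 with 1 line left out. Gstm1 was -0.03 with the first digit, and Gstp1 ran from -0.00 to 0.07 with 1 line left out. The cause of these turns was not tested. The first digit is shared between classes by clones 4D2, 4E3, 4D11 and 4H4 alone, so that block leaves 2 High and 2 Low lines, where Mgst1 differed by 1.38. Mgst2 fell below the stricter filter and has no value there. No paired analysis was possible because the labels pair no High line with a Low line. The replicate numbers used here carry no pairing. Mgst2 and Gstm4 lay below the array medians, where weak signal over background limits small differences.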

Other observations

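The widest ranges over lines among the list genes were singled out after their values were seen. Sod3, the extracellular superoxide dismutase, measured 11.03, 10.21, 9.66, 10.04 and 11.10 in High lines and 8.91, 11.27, 8.09, 8.60 and 11.60 in Low lines, a range of 3.51 log2 units. Low replicates 2 and 5 were the brightest and Low replicates 1, 3 and 4 the dimmest, so the High lines lay inside the Low range. Gstk1, the kappa-class transferase of mitochondria and peroxisomes, measured 10.90, 9.73, 11.03, 9.97 and 8.79 in High lines and 10.40, 10.46, 11.29, 10.68 and 11.03 in Low lines. High replicates 2, 4 and 5 lay below every Low line and High replicates 1 and 3 inside the Low range, and the difference of -0.68 had a limma adjusted p of 0.689. Slc7a11, the cystine importer that feeds glutathione synthesis, measured 9.88, 10.32, 9.75, 9.72 and 9.29 in High lines and 8.30, 9.89, 9.62, 10.47 and 9.99 in Low lines, with Low replicate 1 lowest.

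Gsta1, Gsta2 and predicted copies of them shared 3 probe sets. The first (10587331) ran from 5.79 to 7.20 in High lines, against values of 4.33, 7.76, 3.77, 7.45 and 6.37 in Low lines. It exceeded the array's 25th percentile in 5 of 10 lines. Low replicate 2 was its brightest and Low replicate 3 its dimmest line. The probe set 10595148, above that percentile in all 10 lines, measured 7.98, 8.01, 7.74, 7.79 and 7.56 in High lines and 7.18, 8.01, 7.46, 7.85 and 7.48 in Low lines, with Low replicate 1 dimmest. The last (10587339) exceeded the percentile in 0 lines.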
